A study of Mus musculus with 49 samples.

Results

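Transcripts of 10 genes that act on the G1 phase of the cell cycle were followed through hepatocyte dedifferentiation and 3D culture. They comprise the D-type cyclins Ccnd1, Ccnd2 and Ccnd3, the CDK inhibitors Cdkn1a, Cdkn1b, Cdkn1c, Cdkn2a and Cdkn2b, and Mdm2 and Ccng1, which like Cdkn1a are targets of p53. The genes were chosen by symbol, and all 10 were found among the 46078 Ensembl identifiers of the deposited table. The RNA came from 49 libraries of 16 groups, profiled by CEL-Seq2, a method that tags each molecule near its 3′ end with a unique molecular identifier (UMI) and counts the tags. All mice were wild type and C57BL/6J.

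Hepatocytes were isolated from livers of 10-week-old mice by collagenase digestion. They were sampled freshly isolated (FH, n = 3) and 3 h, 1, 2, 4, 7 and 14 days after plating as a monolayer with EGF (n = 3 each). Further hepatocytes were kept for 7 days with 0.3 µM verteporfin, an inhibitor of Yap, or with its solvent DMSO (n = 2 each). Dedifferentiated hepatocytes (dediHeps, n = 5) are the expandable, serially passaged cells that such cultures give rise to. They were also grown as aggregates on low-attachment plates (n = 3) and as spherical organoids in Matrigel (dediHep-SOs, n = 3). Budding organoids were grown from dediHeps infected with a retrovirus for Cdx2, an intestinal transcription factor (dediHep-BOs, n = 3). The intestinal references were spherical organoids of fetal intestinal progenitor cells from E13.5 embryos (FIPC-SOs, n = 3) and budding organoids of crypt stem cells from 10-week-old mice (ISC-BOs, n = 4). Monolayers of chemically induced liver progenitors (CLiPs, n = 3) completed the set. The paper makes them from hepatocytes with small molecules in a serum-free medium, so that they differ from dediHeps in medium as well. The study's reporting summary speaks of independent repeats in general, but apart from the culture names of dediHeps, aggregates and dediHep-SOs nothing ties a library to an animal or a culture. The p-values measure the spread between these libraries, which may be technical in part. The dediHep-BOs differ from dediHep-SOs in the introduced Cdx2 as well as in shape, and ISC-BOs differ from FIPC-SOs in age as well as in shape. The media can differ too. In the paper spherical organoids form with an added Wnt ligand and a Wnt agonist. Both are removed to obtain dediHep-BOs and are left out for crypts. The sample titles do not give the medium of each library. Shape therefore cannot be told apart from transgene, age or medium in these comparisons.

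D cyclins bind CDK4 and CDK6, and the complexes phosphorylate the retinoblastoma protein, which releases E2F factors and lets a cell leave G1. The INK4 proteins encoded by Cdkn2a and Cdkn2b block CDK4 and CDK6, whereas the CIP/KIP proteins encoded by Cdkn1a, Cdkn1b and Cdkn1c act mainly on CDK2 complexes and can also help to assemble cyclin D complexes. Cdkn1a is a classical target of p53, but it is also induced without p53. Mdm2 encodes the ubiquitin ligase that degrades p53, and Ccng1 encodes cyclin G1. In the adult liver hepatocytes rest in G0 and enter the cycle after tissue loss, when cyclin D1 rises.

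Start sites of the p53 targets are shown because Cdkn1a was to be read beside Mdm2 and Ccng1. For 7 of the 10 genes 10 promoters were matched in RefSeq (GRCm38.p6, 250 bases before to 50 after each start). The p53 half-site, searched on both strands, was found in 3 of these 7 genes. Counted by promoter rather than by gene, 8.36% of 32851 promoters of the same length held it. Capitals mark the match, which is a match of letters and not a measured binding site. In Cdkn1a (chr17:29090866-29090968, plus strand) the matches begin 73 and 51 bases before the first of its 2 starts, and the promoter of the other start held none. In Mdm2 (chr10:117710895-117710984, minus strand) the match begins 186 bases before the start, and in Ccng1 (chr11:40755422-40755511, minus strand) 185 bases before it.
Cdkn1a: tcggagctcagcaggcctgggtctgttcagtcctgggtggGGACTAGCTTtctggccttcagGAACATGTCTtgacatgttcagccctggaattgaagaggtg
Mdm2: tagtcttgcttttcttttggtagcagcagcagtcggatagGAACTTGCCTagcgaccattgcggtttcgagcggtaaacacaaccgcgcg
Ccng1: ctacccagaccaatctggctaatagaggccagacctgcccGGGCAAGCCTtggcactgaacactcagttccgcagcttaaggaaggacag
In the promoter of Cdkn2b a CRE (TGACGTCA), which 1.79% of promoters held, begins 46 bases before the start. The GC box (GGGCGG) and the CCAAT box (CCAAT) were matched in members too, but in 35.7% and 37.4% of all promoters.

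Library totals ran from 861047 to 3872936 UMIs (median 1976760), so that 3 counts in a library correspond to 0.775 to 3.48 CPM (counts scaled to a library total of 1000000). Levels below are CPM scaled with TMM factors over all 49 libraries, and each is compared only with the same gene in other libraries. Count ratios and at-least-fold bounds instead use library totals without these factors. The factors raise FH levels (Ccnd1 in the first FH library from 50.4 to 68.5 CPM), so ratios and bounds over FH are larger without them. A change is called where edgeR's quasi-likelihood test gave an FDR under 0.1 over all genes tested, and log2 fold changes are followed by their SE. FH libraries held all 8 hepatocyte markers, but also markers of sinusoidal endothelium (7 of 7, summed 141 to 194 CPM) and of Kupffer cells (5 to 7 of 7, 40.7 to 145 CPM). In dediHeps the endothelial sum was 1.06 to 2.55 CPM with Kdr, Stab2, Clec4g and Cdh5 at 0, and the Kupffer sum 1.02 to 11.9 CPM with Adgre1, C1qa, Cd5l and Marco at 0. CLiPs had a Kupffer sum of 81.6 to 138 CPM from 2 of the 7 markers, mainly Csf1r, with Clec4f at 0. Stellate cell and fibroblast markers summed to 50.5 to 144 CPM in FH, 21.4 to 99.6 CPM at 7 days, 41.8 to 184 CPM at 14 days and 0 to 1.84 CPM in dediHeps, and the Kupffer sum reached 114 CPM at 14 days. The part of these cells in the levels of FH and of the cultures was not tested, and in bulk samples fewer cells of a type and less RNA per cell cannot be told apart. Mitochondrial transcripts made up 2.94 to 3.3% of counts in FH and 1.37 to 2.07% in dediHeps, and their part in the differences was not tested either.

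**Figure D1:**
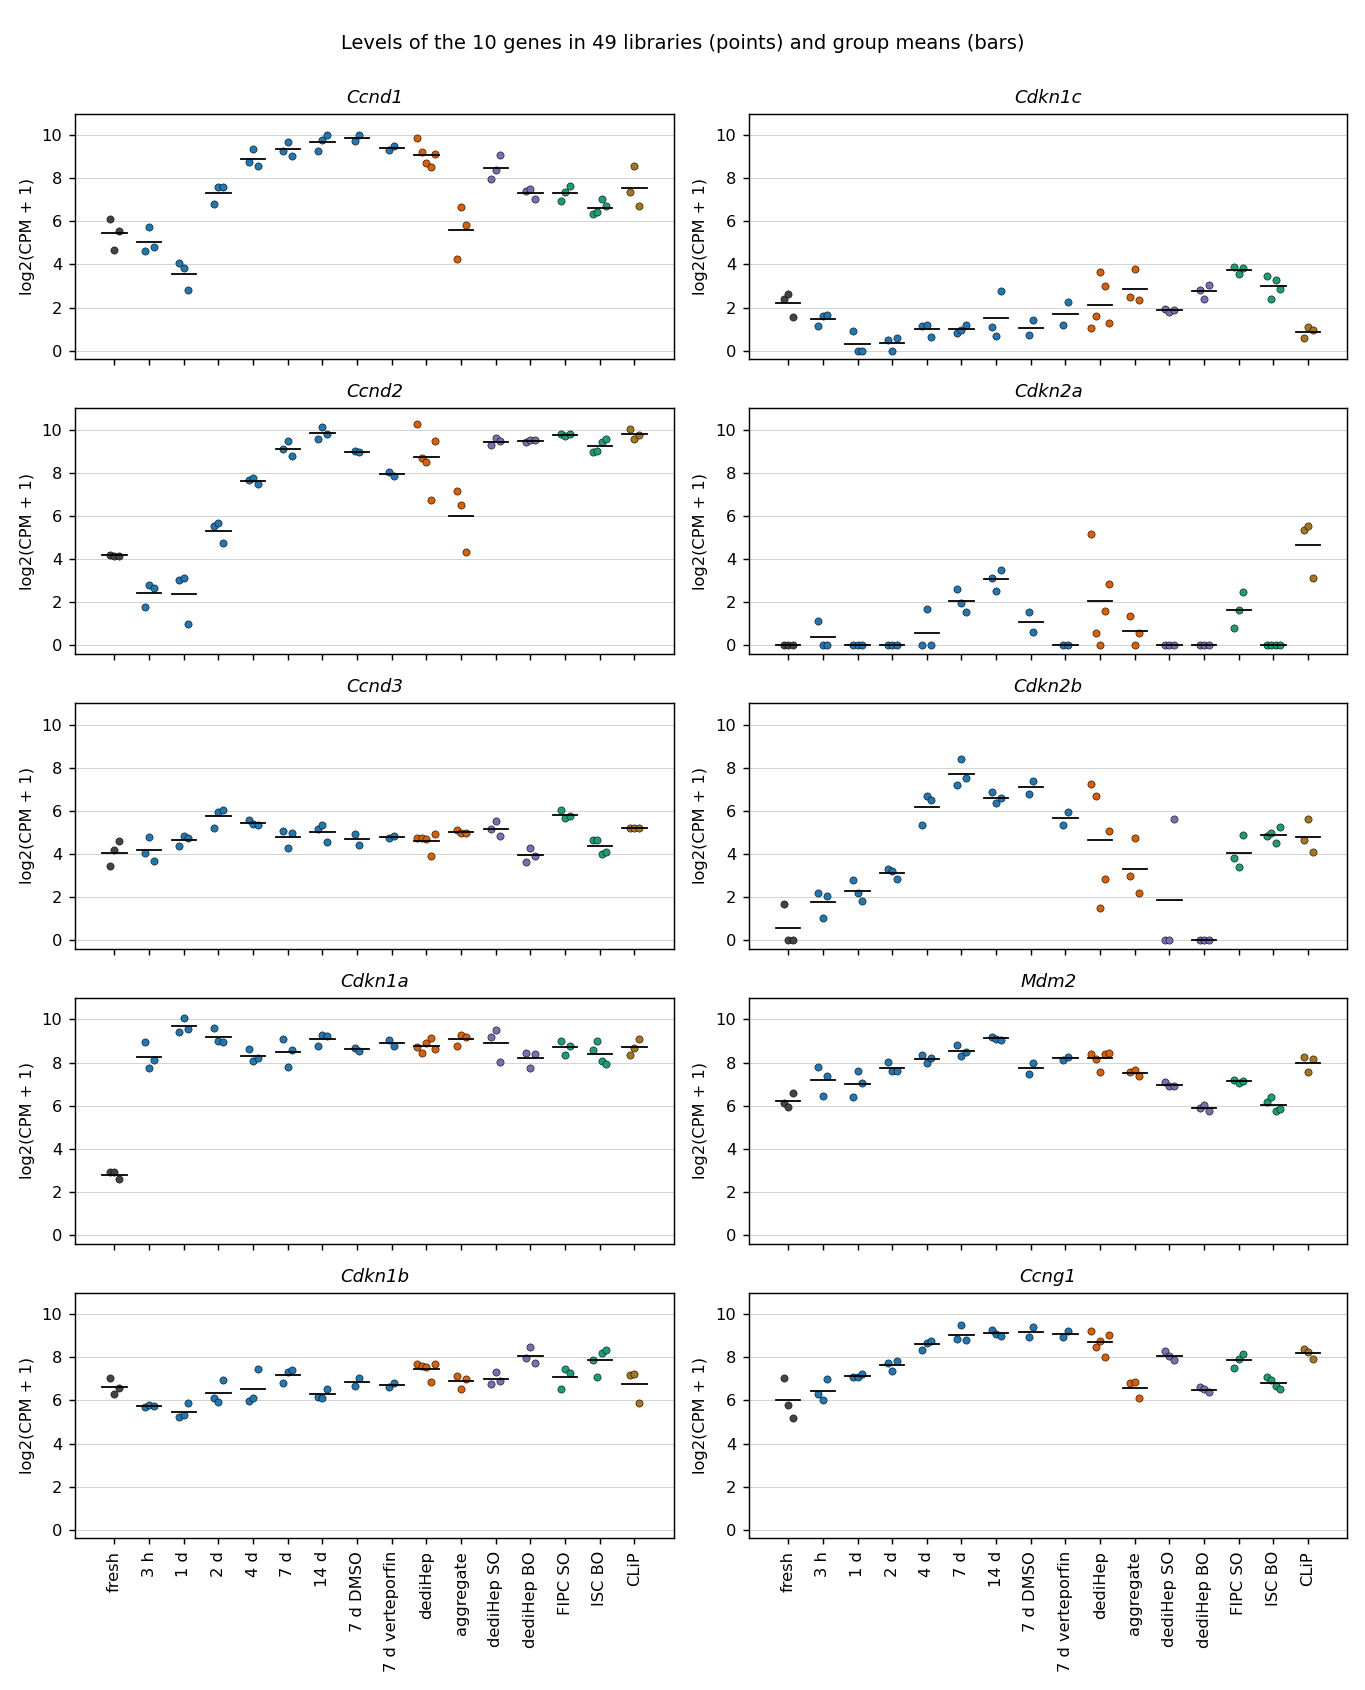
Levels of the 10 genes, as log2(CPM + 1), in each of the 49 libraries (points) of 16 groups, with black bars for the mean of the plotted values. Cdkn1a is low in the 3 FH libraries and at 214 CPM or more in every other library, Ccnd2 climbs from 3 h to 14 days, and Mdm2 and Ccng1 overlap the FH range in both kinds of budding organoid.

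Plating changed most of the 10 genes. After 3 h, 2 of the 8 members tested were higher than in FH (all genes: 7.58% higher) and 1 was lower (all genes: 10.9% lower). At 1 day 2 were higher and 3 lower (all genes: 17.7% and 22.2%). At 2 days 7 of 8 were higher and 0 lower, against 21.2% and 23.1% of all genes, and the same numbers held at 4 days, against 23.5% in either direction. At 7 days 6 were higher (all genes: 25.6% higher, 23.5% lower), and at 14 days 7 were higher (all genes: 28% higher, 27.6% lower), with 0 lower at both times. In passaged dediHeps 6 of 8 were higher than in FH and 0 lower, when 22.4% of all genes were higher and 22.7% lower. Cdkn1c and Cdkn2a had too few counts for these tests. The 7 comparisons share the 3 FH libraries.

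The 3D cultures were compared with dediHeps, with FH and with one another. In aggregates 3 of 9 members tested were lower than in dediHeps and 0 higher (all genes: 12.2% in either direction), and a single fit of all 49 libraries called 6. These fits left the shared culture names out. With the culture as a block Ccnd1, Ccnd2 and Ccng1 passed again, and Cdkn2b passed too (adjusted p = 0.0285, edgeR). In the same aggregates 3 of 7 were higher than in FH and 0 lower (all genes: 15.9% higher, 19.7% lower). In dediHep-SOs 1 of 8 was lower than in dediHeps and 0 higher (all genes: 8.21% lower, 7.93% higher). Relative to FIPC-SOs, 1 of 9 was higher and 1 lower in dediHep-SOs (all genes: 15.6% higher, 14.2% lower). Between dediHep-BOs and dediHep-SOs 8 of 9 differed, 2 higher and 6 lower in the budding form, against 19.1% and 20.5% of all genes. Between the intestinal budding and spherical organoids 4 of 9 were lower and 0 higher in the budding form (all genes: 8.19% lower, 9.69% higher). In dediHep-BOs 1 of 9 was lower than in ISC-BOs and 0 higher (all genes: 4% lower, 4.82% higher). The budding-minus-spherical change differed between dediHep-derived and intestinal organoids for 1 of 9 in the positive and 1 in the negative direction (all genes: 9.24% and 9.09%).

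edgeR called 0 of 9 members between CLiPs and dediHeps (all genes: 2.84% higher, 1.85% lower). There 1 member had an unadjusted p under 0.05, and DESeq2 called 1, Ccnd1. Verteporfin against DMSO likewise gave 0 of 8 in the main edgeR fit (all genes: 0.317% higher, 0.0577% lower), with 3 at an unadjusted p under 0.05 and 2, Ccnd2 and Cdkn2b, with DESeq2. With no low-count filter edgeR called Ccnd2 and Cdkn2b too, and with a block by replicate number these and Ccnd1.

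Of the D cyclins, Ccnd1 (ENSMUSG00000070348, chr7:144929931-144939925, minus strand, GRCm38) first fell and then rose. It is the D cyclin known for its rise in the regenerating liver. The FH libraries held 68.5, 24.8 and 45.9 CPM, those at 1 day 15.9, 13.2 and 6.06 CPM, and those at 14 days 612, 885 and 1037 CPM. Every 1-day library was below every FH library, and every library of 2 to 14 days was above them. The log2 fold change against FH was -2.15 ± 0.45 at 1 day (adjusted p = 0.00078), 1.66 at 2 days, 3.25 at 4 days, 3.67 at 7 days and 4.06 ± 0.46 at 14 days (adjusted p = 1.69e-07). At 3 h it was -0.42 ± 0.44 and did not pass (adjusted p = 0.557).

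Passaged dediHeps had Ccnd1 at 924, 587, 419.9, 369.6 and 555 CPM, above all FH libraries with a log2 fold change of 3.41 ± 0.50 over FH (adjusted p = 0.000301). In aggregates it was 17.8, 101 and 55.9 CPM, below all 5 dediHep libraries and overlapping FH. The aggregates were lower than dediHeps by a log2 fold change of -3.27 ± 0.55 (adjusted p = 0.00472), which made it the most reduced of the 9 members tested there, while against FH the difference was 0.15 with a 95% interval of -1.01 to 1.31.

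Organoids had group means of Ccnd1 between those of FH and dediHeps. The dediHep-SOs overlapped dediHeps, and their difference of -0.60 ± 0.38 did not pass (adjusted p = 0.354). The dediHep-SOs held 245, 332 and 547 CPM and the dediHep-BOs 169.7, 183 and 132 CPM, with no overlap and a log2 fold change of -1.23 ± 0.32 (adjusted p = 0.0105). In FIPC-SOs the values were 123, 161 and 197 CPM, below every dediHep-SO library, a log2 fold change of 1.23 ± 0.32 (dediHep-SO minus FIPC-SO, adjusted p = 0.0119). ISC-BOs held 81.0, 84.6, 132 and 103 CPM, and the difference from FIPC-SOs (-0.72 ± 0.29) did not pass (adjusted p = 0.128). CLiPs spread widely, at 162, 381 and 105 CPM.

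Ccnd2 (ENSMUSG00000000184, chr6:127125162-127152193, minus strand) had a wider range. It encodes a D cyclin that many tissues express beside or in place of cyclin D1. The FH values were 17.4, 17.0 and 17.0 CPM, the 3 h values 2.39, 6.10 and 5.35 CPM, and the 14-day values 766, 1108 and 895 CPM. None of the other 15 groups overlapped FH: the 3 h and 1-day groups lay wholly below it and the remaining 13 wholly above. The log2 fold change was -1.84 ± 0.53 at 3 h (adjusted p = 0.0283) and -1.83 at 1 day, then 1.09 at 2 days, 3.40 at 4 days, 4.89 at 7 days and 5.62 ± 0.47 at 14 days (adjusted p = 1.53e-09). Without the first 3 h library the call at 3 h was lost (adjusted p = 0.108), and without the first or second 2-day library so was that at 2 days.

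The dediHep libraries were uneven in Ccnd2, at 1250.3, 409, 364, 107 and 707 CPM. All were above FH (log2 fold change 4.87 ± 0.81, adjusted p = 0.000667). Aggregates held 142, 90.0 and 19.0 CPM, of which the highest exceeded the lowest dediHep library, and were lower by a log2 fold change of -2.72 ± 0.83 (adjusted p = 0.0506). That call was lost without the second or the third aggregate library, at an adjusted p of up to 0.153. Within a culture Ccnd2 went from 1250.3 CPM in dediHeps to 142 CPM in aggregates, from 409 to 90.0 CPM and from 107 to 19.0 CPM, lower in 3 of 3 cultures. With the culture as a block the change was -2.56 ± 0.37 (adjusted p = 0.00251). Against FH aggregates were still higher (2.14 ± 0.65, adjusted p = 0.0314), but not without the first aggregate library (adjusted p = 0.104).

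In organoids and CLiPs Ccnd2 lay above FH in every library. It was 621 to 785 CPM in dediHep-SOs, 698 to 733 CPM in dediHep-BOs, 834 to 909.9 CPM in FIPC-SOs, 501 to 752 CPM in ISC-BOs and 767 to 1042 CPM in CLiPs. Between dediHep-BOs and dediHep-SOs the log2 difference was 0.02 with a 95% interval of -0.36 to 0.40. ISC-BOs were lower than FIPC-SOs (-0.55 ± 0.18, adjusted p = 0.0525), without overlap, though leaving out 1 library ended this call for 2 of the 3 FIPC-SO and 2 of the 4 ISC-BO libraries. With verteporfin the values were 262 and 229.5 CPM against 510.5 and 508 CPM with DMSO. These groups did not overlap, but the log2 fold change of -1.06 (95% interval -1.49 to -0.62) did not pass in the main edgeR fit (adjusted p = 0.157). It passed in edgeR with no low-count filter (adjusted p = 0.00261) and with a block by replicate number (adjusted p = 0.000564).

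Ccnd3 (ENSMUSG00000034165, chr17:47505051-47599691, plus strand), the third D cyclin, moved in a narrower range. FH held 9.79, 17.0 and 22.9 CPM and the 2-day libraries 36.5, 61.5 and 65.5 CPM. The rise of 1.56 ± 0.37 at 2 days (adjusted p = 0.00193) and of 1.23 at 4 days passed, and the groups did not overlap with FH. At 14 days the log2 fold change was 0.82 ± 0.38 (adjusted p = 0.0751), which was lost without FH replicate 1 or 2, without 14-day replicate 1 or 2, and with no low-count filter. In dediHeps, at 13.8 to 29.9 CPM, and in aggregates, at 30.0 to 34.0 CPM, no change passed in the main fits. The aggregates lay wholly above FH, and against FH they passed in the single fit of 49 libraries (0.87, adjusted p = 0.0478, edgeR).

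Both budding forms were lower in Ccnd3 than the spherical ones. The dediHep-BOs held 11.5, 18.6 and 13.8 CPM against 34.7, 44.7 and 27.2 CPM in dediHep-SOs (-1.27 ± 0.31, adjusted p = 0.00756). ISC-BOs held 24.2, 24.1, 15.2 and 16 CPM against 64.5, 49.2 and 53 CPM in FIPC-SOs (-1.53 ± 0.28, adjusted p = 0.00156). Neither pair of groups overlapped, and the difference between the 2 changes was 0.26 with a 95% interval of -0.56 to 1.07.

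Among the CIP/KIP inhibitors, Cdkn1a (ENSMUSG00000023067, chr17:29090976-29100727, plus strand), which encodes p21, separated FH from everything else. The FH libraries held 6.53, 6.52 and 4.99 CPM. At 3 h the values were already 492, 214 and 279 CPM, and at 1 day they were 684, 1083 and 743 CPM, the highest group mean. All 15 other groups lay wholly above FH, and among these 15 each group overlapped the next in the order of means. The log2 fold change was 5.77 ± 0.45 at 3 h (adjusted p = 3.51e-08), 6.95 ± 0.47 at 1 day (8.63e-10), 6.45 at 2 days, 5.59 at 4 days, 5.80 at 7 days and 6.39 at 14 days.

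No later culture form brought Cdkn1a back toward FH. The dediHeps held 422, 345, 473, 563 and 394 CPM (5.97 ± 0.41 over FH, adjusted p = 1.66e-06). Aggregates, in which Ccnd1 and Ccnd2 were lower, held 442, 617 and 582 CPM, 6.33 ± 0.44 above FH (adjusted p = 5.93e-06), and the log2 difference from dediHeps was 0.35 with a 95% interval of -0.12 to 0.83. CLiPs were at 325, 409 and 549.7 CPM, a log2 difference of -0.08 from dediHeps (95% interval -0.63 to 0.46).

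Intestinal organoids, which never passed through a hepatocyte culture, had levels of Cdkn1a in the same range: 511, 331 and 431 CPM in FIPC-SOs and 388, 504, 270.1 and 243 CPM in ISC-BOs. Values in dediHep-SOs were 584, 732 and 258 CPM and in dediHep-BOs 343, 216 and 334 CPM. These overlapped, and the log2 fold change of -0.83 ± 0.35 passed by a small margin (adjusted p = 0.0885). Leaving out any of 8 single libraries of the 4 organoid groups ended this call, with adjusted p values of up to 0.33.

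Cdkn1b (ENSMUSG00000003031, chr6:134920401-134925513, plus strand), which encodes p27, was measured at 133, 76.9 and 94.7 CPM in FH. At 3 h it was 50.3, 53.9 and 52.4 CPM and at 1 day 37.0, 39.1 and 57.6 CPM, wholly below FH at both times. Only the change at 1 day passed (-1.36 ± 0.40, adjusted p = 0.0113), and that at 3 h did not (-0.95 ± 0.40, adjusted p = 0.125). From 2 to 14 days it overlapped FH and no change passed. The dediHeps held 204, 192, 186, 115 and 204 CPM, of which the fourth was within the FH range (0.61 ± 0.34 over FH, adjusted p = 0.192).

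Cdkn1b had its highest group means in the budding organoids. The dediHep-BOs held 249.8, 357 and 215 CPM, above all dediHep-SOs at 107, 160.1 and 119 CPM (1.09 ± 0.34, adjusted p = 0.0288). This call was lost without the second dediHep-BO or the first dediHep-SO library (adjusted p up to 0.116). ISC-BOs at 230.5, 134, 297 and 326 CPM overlapped FIPC-SOs at 92.4, 176 and 152 CPM, and their difference of 0.78 ± 0.32 did not pass (adjusted p = 0.139).

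Few counts were available for Cdkn1c (ENSMUSG00000037664, chr7:143458339-143461050, minus strand), the imprinted gene of p57. The FH libraries held 4.35, 5.22 and 1.99 CPM and the 1-day libraries 0.860, 0 and 0 CPM. The FIPC-SOs were highest, at 13.53, 10.8 and 13.2 CPM, and the dediHep-SOs at 2.84, 2.51 and 2.72 CPM were below them by a log2 fold change of -2.19 ± 0.40 (adjusted p = 0.00126). In budding organoids the values were 6.01, 4.32 and 7.33 CPM for dediHep-BOs and 10.1, 4.23, 8.70 and 6.38 CPM for ISC-BOs.

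The fitted difference between budding and spherical organoids had opposite signs in the 2 origins. Cdkn1c was higher in dediHep-BOs than in dediHep-SOs (1.09 ± 0.42, adjusted p = 0.0624), and the fitted value of ISC-BOs minus FIPC-SOs was -0.82 ± 0.34 (adjusted p = 0.133). The difference between the changes was 1.92 ± 0.54 (adjusted p = 0.0371), but with all 49 libraries in a single fit it did not pass (adjusted p = 0.2). The rise in dediHep-BOs was lost in the same fit, with no low-count filter and without any of 4 single libraries. Fibroblast markers summed to 4.78 to 335 CPM in dediHep-BOs and to 6.22 to 591 CPM in FIPC-SOs, against 0 to 1.36 CPM in dediHep-SOs. Their part in the Cdkn1c values was not tested.

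**Figure D2:**
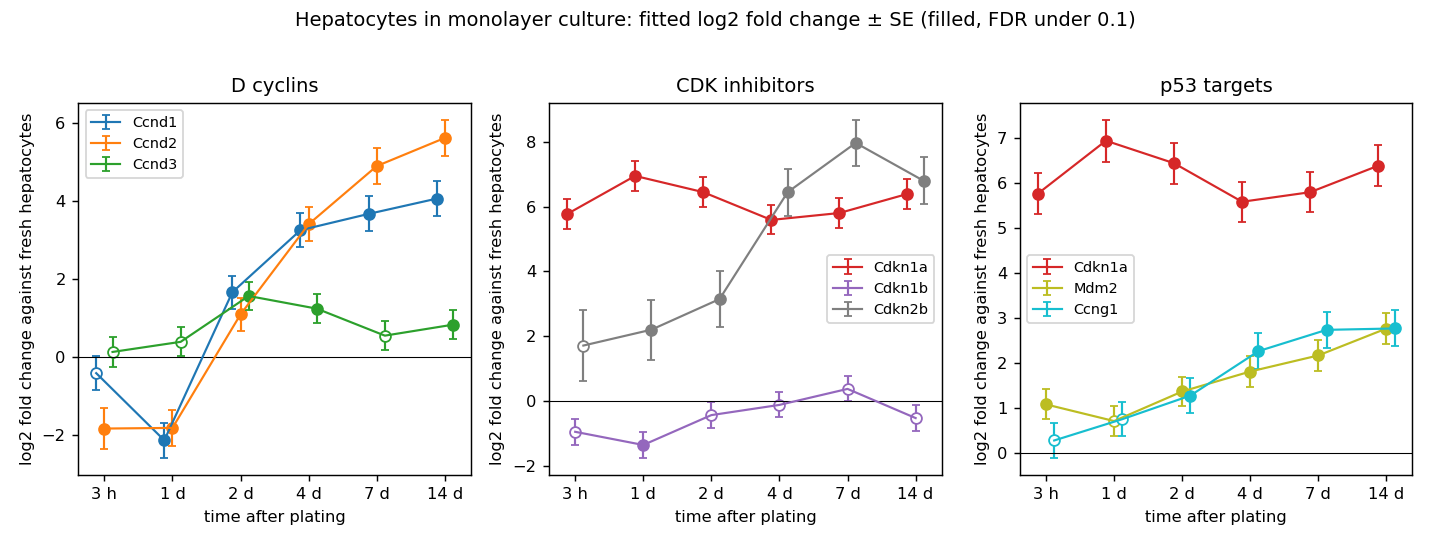
Fitted log2 fold change against FH (vertical axis) by time after plating (horizontal axis, not to scale) for D cyclins, CDK inhibitors and p53 targets, with bars for the SE; filled points passed at an FDR under 0.1. Cdkn1a is up by 5.77 at 3 h and between 5.59 and 6.95 at later times, whereas Ccnd1 and Ccnd2 dip at 1 day and climb to 4.06 and 5.62 at 14 days.

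The INK4 genes are neighbours on chromosome 4. Cdkn2b (ENSMUSG00000073802, chr4:89306299-89311039, minus strand), which encodes p15, had 2 counts in all FH libraries together (2.18, 0 and 0 CPM). It was 8.91, 8.41 and 6.26 CPM at 2 days, 39.6, 102 and 88.8 CPM at 4 days, and 145, 337 and 182 CPM at 7 days. The 7-day group had the highest mean, and the 14-day libraries held 116, 80.7 and 97.3 CPM. With so few counts in FH the ratio is poorly bounded, at 170 (95% counting interval 46.7 to 1400) at 4 days, 467 (129 to 3860) at 7 days and 203 (56.0 to 1680) at 14 days. These ratios take library totals without TMM factors. The fitted folds, with TMM, were 87.0, 250 and 111. The fitted change passed at 1 day (adjusted p = 0.0742) and at each later time, at 4 days with an adjusted p of 2.37e-07. The 1-day call was lost in 5 alternatives, among them DESeq2 and leaving out FH replicate 2 or 3.

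Cdkn2b was uneven between dediHep libraries, at 150.0, 102, 1.85, 6.11 and 32.8 CPM. The third was inside the FH range. Over FH the ratio on library totals was 105 (28.8 to 866). The fitted fold, with TMM, was 64.4 (adjusted p = 0.0211, edgeR). The ratio on totals was 63.5 without the first dediHep library, 64.6 without the third FH library and at least 47.9 without the first FH library, which held both FH counts. Aggregates held 6.96, 25.6 and 3.59 CPM, a log2 fold change of -2.22 ± 1.22 from dediHeps that did not pass (adjusted p = 0.225). The cultures behind these libraries share names, and when each aggregate was paired with the dediHeps of its own culture the change passed (-2.44 ± 0.64, adjusted p = 0.0285).

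Organoids differed in whether Cdkn2b was detected. It had 0 counts in all 3 dediHep-BOs, while the ISC-BOs held 27.5, 30.9, 21.8 and 36.9 CPM, so that it was at least 60.5-fold lower in dediHep-BOs, taking 3 counts over the group as the floor (adjusted p of the fitted change 0.0442). Leaving out any of the dediHep-BO libraries ended this call, at an adjusted p of up to 0.142, although the remaining libraries were still at 0. FIPC-SOs held 13.1, 9.40 and 28.4 CPM.

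The dediHep-SOs were at 0, 0 and 48.0 CPM. Relative to dediHep-BOs they were at least 30.8-fold higher (adjusted p of the fitted change 0.0283), which rested on the third library: without it both groups were at 0. The difference between the budding-minus-spherical changes of the 2 origins (adjusted p = 0.0636) rested on the same library and fell to a log2 value of -0.74 without it. CLiPs held 24.1, 48.7 and 16.1 CPM. Verteporfin-treated cells held 39.8 and 61.6 CPM against 109.8 and 166 CPM with DMSO, without overlap, but the log2 fold change of -1.45 (95% interval -2.07 to -0.83) did not pass in the main edgeR fit (adjusted p = 0.169). It passed in edgeR with no low-count filter (adjusted p = 0.00146) and with a block by replicate number (adjusted p = 0.000211).

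Cdkn2a (ENSMUSG00000044303, chr4:89274471-89294653, minus strand) gives rise to p16Ink4a and to p19Arf, an antagonist of Mdm2. Its 2 coding transcripts end at 89274471 and 89274541, so that 3′ counts cannot tell them apart. It had 0 counts in FH and at 1 and 2 days, and 7 of the 16 groups had none in any library. At 7 days it was 5.23, 2.87 and 1.98 CPM and at 14 days 7.89, 4.85 and 10.3 CPM. On library totals without TMM factors, Cdkn2a was at least 4.92-fold and 9.75-fold over FH at these times. As the floor of 3 counts weighs more in a smaller group, these bounds were 3.04-fold and 6.02-fold without the third FH library. It had too few counts for the low-count filter, but without the filter Cdkn2a passed at 7 days (adjusted p = 0.0113) and at 14 days (adjusted p = 0.000424).

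Passaged cells differed among themselves in Cdkn2a. The dediHeps held 35.6, 0.508, 0, 2.04 and 6.27 CPM and the CLiPs 40.0, 45.8 and 7.80 CPM. On library totals without TMM factors, these groups were at least 10.4-fold and 48.7-fold over FH. The first dediHep library gave 65 of the 84 dediHep counts, and without it the bound was 2.77-fold. Without the second CLiP library the CLiP bound was 29.2-fold. Without the third FH library the bounds were 6.42-fold for dediHeps and 30.1-fold for CLiPs. The CLiP minus dediHep difference of 1.75 ± 1.23 did not pass (adjusted p = 0.503), but without the first dediHep library it was 3.85 and passed (adjusted p = 0.0738). In aggregates the highest library held 1.55 CPM, dediHep-SOs, dediHep-BOs and ISC-BOs had 0 counts, and the FIPC-SOs held 0.773, 2.17 and 4.52 CPM.

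Of the p53 targets, Mdm2 (ENSMUSG00000020184, chr10:117688875-117710758, minus strand) was above FH at 3 h and from 2 to 14 days. FH held 69.6, 60.0 and 93.8 CPM, the 3 h libraries 223, 85.4 and 163 CPM and the 14-day libraries 589.9, 552 and 532 CPM, the highest of all groups and without overlap with the next. The log2 fold change was 1.08 ± 0.34 at 3 h (adjusted p = 0.0401), 1.37 at 2 days, 1.81 at 4 days, 2.17 at 7 days and 2.77 ± 0.35 at 14 days (adjusted p = 8.72e-07). The 3 h call was lost without FH replicate 2 or without 3 h replicate 1 or 3. At 1 day the change of 0.71 ± 0.33 did not pass (adjusted p = 0.109), when Cdkn1a had its highest mean, but it passed with DESeq2 (adjusted p = 0.0988).

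Mdm2 was also measured in dediHeps and their 3D forms. It was 341, 287, 186, 334 and 349 CPM in dediHeps (1.80 ± 0.35 over FH, adjusted p = 0.00187), 186, 198 and 165 CPM in aggregates, 135, 118 and 119 CPM in dediHep-SOs and 57.6, 64.4 and 53 CPM in dediHep-BOs. The difference of aggregates from dediHeps, -0.66 ± 0.27, did not pass (adjusted p = 0.12), but passed with DESeq2 (adjusted p = 0.0899), in the single fit of 49 libraries (adjusted p = 0.0481) and without the third dediHep library (adjusted p = 0.0646). Aggregates were above FH (1.15 ± 0.35, adjusted p = 0.0303), a call that was lost without FH replicate 2 (adjusted p up to 0.112). The dediHep-SOs were lower than dediHeps by a log2 fold change of -1.25 ± 0.29 (adjusted p = 0.0179), without overlap. With culture names as a block, this change was -1.09 ± 0.42 and did not pass (adjusted p = 0.2).

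Mdm2 was lower in both budding forms than in the spherical ones. The log2 fold change was -1.10 ± 0.24 for dediHep-BOs minus dediHep-SOs (adjusted p = 0.00367) and -1.12 ± 0.22 for ISC-BOs minus FIPC-SOs (adjusted p = 0.00282), with a difference of 0.02 between them (95% interval -0.62 to 0.65). ISC-BOs at 70.3, 84.1, 53.1 and 57.0 CPM and dediHep-BOs overlapped FH, whereas FIPC-SOs at 146, 131 and 141 CPM and dediHep-SOs lay above it.

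Ccng1 (ENSMUSG00000020326, chr11:40748552-40755311, minus strand) was called later than Mdm2 and Cdkn1a. FH held 133, 53.5 and 34.9 CPM, the 3 h libraries 76.6, 64.0 and 125 CPM and the 1-day libraries 136, 134 and 150.1 CPM. At 3 h the groups overlapped, with a log2 difference of 0.27 (95% interval -0.48 to 1.03), and at 1 day the change of 0.75 ± 0.38 did not pass (adjusted p = 0.142). Without the first FH library, the highest of the group, Ccng1 passed at both times, at 1.03 (adjusted p = 0.0484) and 1.52 (adjusted p = 0.00285). It rose by 1.27 at 2 days, 2.26 at 4 days, 2.74 at 7 days and 2.77 ± 0.40 at 14 days (adjusted p = 6.2e-06).

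In dediHeps Ccng1 was 591, 358, 436, 261 and 529.5 CPM (2.34 ± 0.52 over FH, adjusted p = 0.00433). Aggregates held 112, 114 and 67.2 CPM, below every dediHep library (-2.12 ± 0.37, adjusted p = 0.0051) and within the FH range. Among organoids it was 308, 265 and 234 CPM in dediHep-SOs and 97.1, 90.8 and 81.9 CPM in dediHep-BOs (-1.59 ± 0.25, adjusted p = 0.000252). FIPC-SOs at 181, 242 and 287 CPM lay above ISC-BOs at 137, 124, 99.6 and 90.3 CPM (-1.12 ± 0.22 for ISC-BO minus FIPC-SO, adjusted p = 0.0031).

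**Figure D3:**
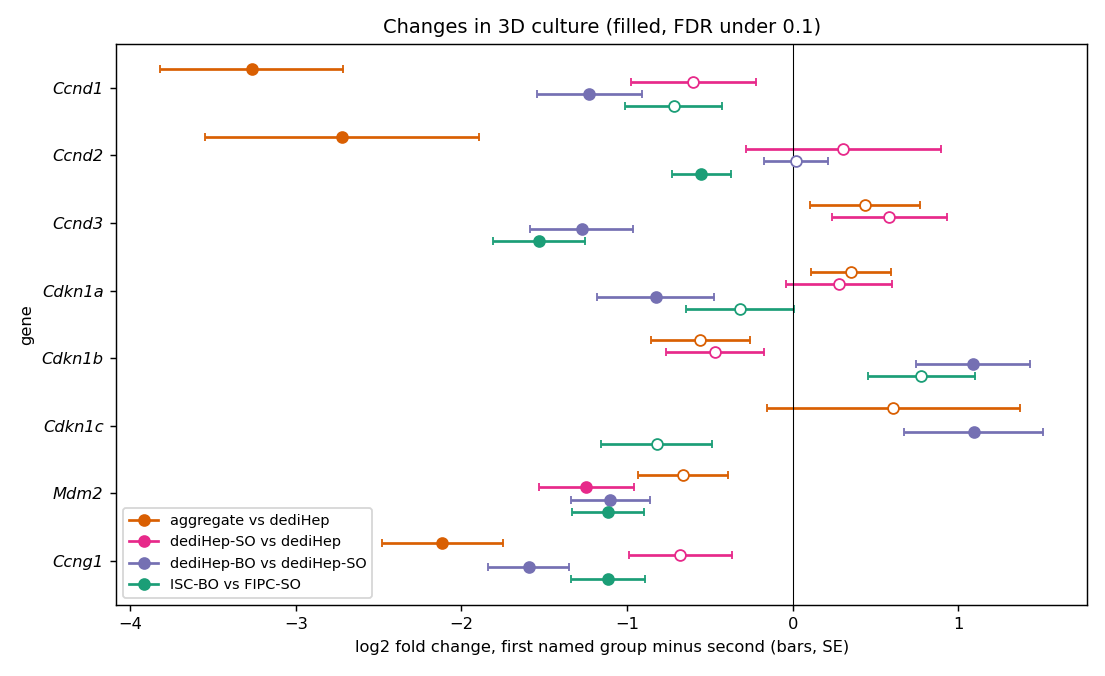
Fitted log2 fold change with its SE (horizontal axis, first named group minus second) of 8 members (vertical axis) in 4 comparisons of 3D cultures; filled points passed at an FDR under 0.1, and Cdkn2a and Cdkn2b are left out because groups with 0 counts give no bounded fit. Ccnd1, Ccnd2 and Ccng1 are lower in aggregates while Cdkn1a does not pass, and Mdm2, Ccng1 and Ccnd3 are lower in budding than in spherical organoids of both origins.

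The p53 targets did not move as 1 group. Across the 16 group means on the log2 scale, Cdkn1a had Pearson's r = 0.41 (Spearman's rho = 0.329) with Mdm2 and r = 0.4 (rho = 0.297) with Ccng1. Ccng1 and Mdm2 were more alike, at r = 0.809 (rho = 0.774). Ccng1 was still closer to Ccnd1, at r = 0.865 (rho = 0.921), and after leaving out the 2 groups farthest from the median, 1 day and 3 h, r was 0.948. Ccnd1 and Ccnd2 had r = 0.768 (rho = 0.479), which fell to 0.544 without these groups. These groups share a source of cells and a scaling, so the values are descriptions.

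Among 14275 genes other than the members, those whose group means were most like a member's were named by the highest Pearson r over the 16 groups. For Cdkn1a they included Specc1 (0.916) and Psat1 (0.913), which encodes an enzyme of serine synthesis. For Ccnd1 they were Cnn2 (0.94), an actin-binding calponin, Rbpj (0.928), the transcription factor of Notch signalling, and Nde1 (0.904). For Ccnd2 they were Dpysl2 (0.98), Marcksl1 (0.971) and Dcaf4 (0.967), and for Ccnd3 Blvra (0.844), Cars (0.797) and Umps (0.792).

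For Cdkn1b the nearest were Zcchc8 (0.92), Sin3a (0.911) and Nfatc3 (0.91), and for Cdkn1c Jarid2 (0.906), Gcnt3 (0.86) and Tcf7l2 (0.856). Cdkn2a had Gpr85 (0.943), Srgap1 (0.929) and Slc22a17 (0.906), and Cdkn2b had Gnpda2 (0.903), Ttc5 (0.903) and Eml2 (0.887). Mdm2 was nearest to Chn1 (0.912), Arhgef25 (0.901) and Ahi1 (0.891), and Ccng1 to Sgcb (0.946), Inka2 (0.946) and Garnl3 (0.943). The 10 members were not candidates in this ranking.

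Trp53 itself, the gene of p53, stood at 14.4 ± 13.3 CPM (SD, n = 3) in FH and at 109 ± 70.5 CPM (SD, n = 5) in dediHeps. These are transcript levels, and p53 protein was not measured in these libraries. The part of p53 in the levels of Cdkn1a was not tested. Against FH Trp53 did not pass at 3 h (0.86 ± 0.57, adjusted p = 0.336), when Cdkn1a was at 214 CPM or more. It passed at 1 day (1.27), 2 days (1.73), 4 days (1.80), 7 days (2.54 ± 0.55), 14 days (1.94) and in dediHeps (2.69 ± 0.73, adjusted p = 0.0132). In aggregates, at 27.0 ± 11 CPM (SD, n = 3), it was lower than in dediHeps (-1.98 ± 0.55, adjusted p = 0.0369).

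Of 20 other p53 targets, 3 were higher and 2 lower at 3 h (all genes: 7.58% higher, 10.9% lower). Their median log2 fold change was 0.0142 (all genes -0.0718). The genes that rose at 3 h were led by Btg2 (2.11 ± 0.33), an antiproliferative factor, and Gdf15 (2.95 ± 0.47), a stress-induced cytokine. Those that fell were Bbc3 (-2.38 ± 0.45), a BH3-only activator of apoptosis, and Tigar (-1.0 ± 0.29). At 1 day 8 were higher and 2 lower, at 4 days 12 and 3, at 7 days 14 and 4, and at 14 days 12 and 5. Of all genes, 17.7% were higher and 22.2% lower at 1 day, and 23.5% in either direction at 4 days. The shares were 25.6% and 23.5% at 7 days, and 28% and 27.6% at 14 days. The counts of lower targets did not exceed these shares. The median reached 2.14 at 7 days (all genes 0.171), with the death receptor gene Tnfrsf10b at 8.16 ± 0.85 and the BH3-only gene Pmaip1 at 6.95 ± 0.70. The death receptor gene Fas moved the other way (-2.56 ± 0.47 at 7 days), as did Ei24 (-1.05 ± 0.27).

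In dediHeps 12 of 19 tested p53 targets were higher than in FH and 2 lower, with a median of 1.99 (all genes: 22.4% higher, 22.7% lower, median 0.082). In aggregates 9 of 20 were lower than in dediHeps and 1 higher, led by the kinase gene Plk2 (-3.58 ± 0.58). The median was -1.02 (all genes: 12.2% in either direction, median -0.0659). In dediHep-BOs 11 of 19 were lower than in dediHep-SOs and 2 higher, with a median of -0.999 (all genes: 20.5% lower, 19.1% higher, median 0.0152). Zmat3, an RNA-binding protein, was at -3.01 ± 0.37 and Phlda3, an Akt repressor, at -3.88 ± 0.56. ISC-BOs had 7 of 19 lower and 3 higher than FIPC-SOs, led by the same pair at -1.66 ± 0.32 and -2.69 ± 0.50. The median was -0.437 (all genes: 8.19% lower, 9.69% higher, median -0.0321). In dediHep-SOs 6 of 19 were lower than in dediHeps and 0 higher, led by Trp53inp1 (-2.02 ± 0.35) and Btg2 (-2.47 ± 0.44). The median was -0.903 (all genes: 8.21% lower, 7.93% higher, median -0.0523).

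Partners of the members in G1 control were a list of 20 genes, mostly of cyclin E, CDKs, the Rb family and E2F factors. At 1 day 5 of 19 tested were higher and 3 lower, with a median of 0.279 (all genes: 17.7% higher, 22.2% lower, median -0.0301). Cdk6, a partner kinase of the D cyclins, was up by 2.64 ± 0.31 and E2f3 by 2.01 ± 0.37. The INK4 gene Cdkn2c was down (-2.82 ± 0.59), as was Rbl2 (-2.19 ± 0.50), a relative of Rb1 found in resting cells. At 2 days 11 were higher and 1 lower, with a median of 1.17 (all genes: 21.2% higher, 23.1% lower, median 0.0367). In dediHeps 9 of 18 were higher and 0 lower, with a median of 1.11 (all genes: 22.4% higher, 22.7% lower). Aggregates had 8 of 18 lower than dediHeps and 0 higher (all genes: 12.2% in either direction). Their median was -0.815, and they were led by Rbl1 (-2.69 ± 0.67) and E2f4 (-1.74 ± 0.45).

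The partners were also compared between organoids. In dediHep-BOs 5 of 18 were higher and 1 lower than in dediHep-SOs (all genes: 19.1% higher, 20.5% lower). Their median was 0.443, and they were led by Rb1 (2.10 ± 0.32) and Tfdp2 (2.12 ± 0.36). In ISC-BOs 2 of 18 were higher and 1 lower than in FIPC-SOs, with a median of -0.109 (all genes: 9.69% higher, 8.19% lower). In dediHep-SOs 1 was higher and 4 lower than in FIPC-SOs, with a median of -0.457 (all genes: 15.6% higher, 14.2% lower). Between dediHep-BOs and ISC-BOs edgeR called 0 of 18, with a median of 0.0203 (all genes: 4.82% higher, 4% lower). There 2 had an unadjusted p under 0.05 in edgeR, and DESeq2 called 0. Cdkn2c, the INK4 gene of p18, was higher in dediHep-SOs than in FIPC-SOs by 3.83 ± 0.58 and higher in ISC-BOs than in FIPC-SOs by 3.02 ± 0.55. Rb1 was lower in dediHep-SOs than in FIPC-SOs (-1.71 ± 0.32).

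Genes of DNA replication and mitosis were set beside the members as a readout of cycling. Of these 12, 1 was higher and 2 lower at 3 h (all genes: 7.58% higher, 10.9% lower). At 1 day 1 was higher and 1 lower (all genes: 17.7% and 22.2%), with the proliferation marker Mki67 at -4.78 ± 1.00. At 2 days, with Cdkn1a 6.45 above FH, all 12 were higher, led by Top2a (5.50 ± 0.57) and Mki67 (4.79 ± 0.64). The median was 3.84 (all genes: 21.2% higher, median 0.0367). The 12 were also higher at 4 days (median 4.04), 14 days (median 3.36) and in dediHeps (median 3.61), and 11 of them at 7 days (median 3.12). Of all genes, 23.5% were higher at 4 days, 28% at 14 days, 22.4% in dediHeps and 25.6% at 7 days. In aggregates 11 were lower than in dediHeps and 0 higher, with a median of -3.47 (all genes: 12.2% in either direction, median -0.0659). There Mki67 was at -5.45 ± 0.88 and Ccnb2 at -4.96 ± 0.90, at a Cdkn1a level that overlapped that of dediHeps.

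The readout of cycling was also compared in organoids and CLiPs. In dediHep-BOs 6 of 12 were higher than in dediHep-SOs and 0 lower (all genes: 19.1% higher, 20.5% lower). The median was 0.709, and Ccna2 led (1.25 ± 0.25). In dediHep-SOs 5 of 12 were lower than in FIPC-SOs (all genes: 14.2% lower), led again by Ccna2 (-1.56 ± 0.26), with a median of -0.639. CLiPs had 1 of 12 lower than dediHeps, Mcm2 (-1.48 ± 0.37), with a median of -1.53 (all genes: 1.85% lower, median -0.0271).

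**Figure D4:**
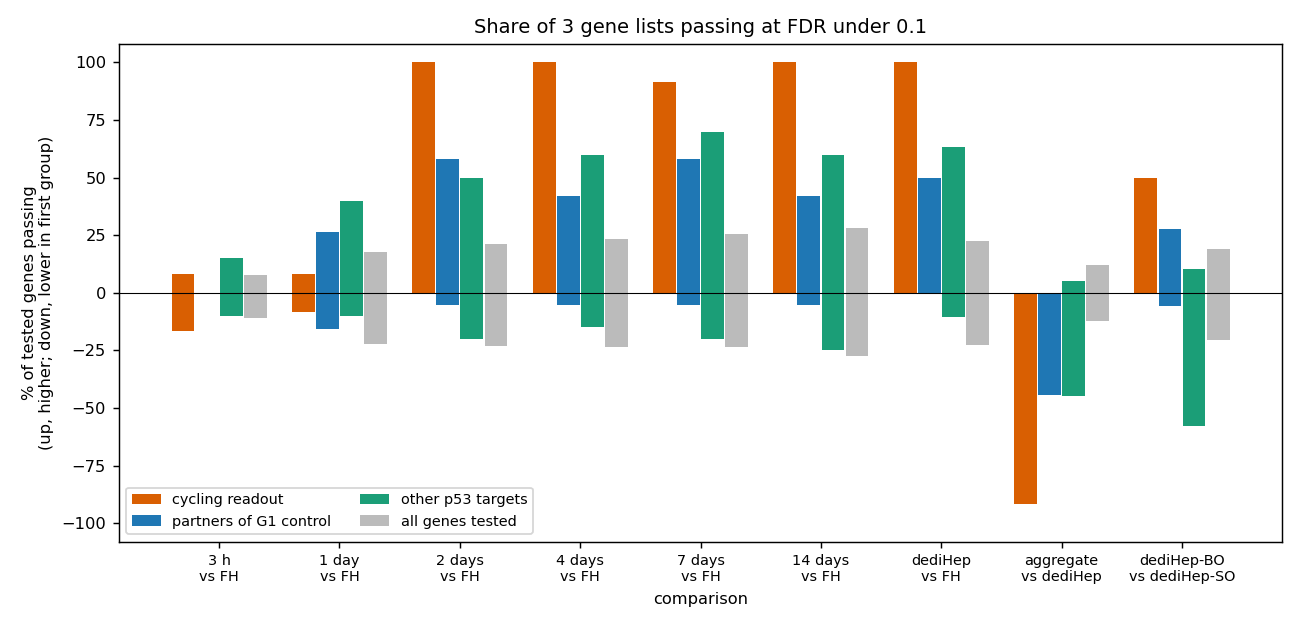
Share of the tested genes of 3 lists (coloured bars) and of all genes tested (grey bars) that passed at an FDR under 0.1 (vertical axis, percent; upward for higher and downward for lower in the first named group) in 9 comparisons (horizontal axis). The 12 genes of the cycling readout pass in full from 2 days on except for 1 at 7 days, and 11 of them fall in aggregates.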

How the data were processed

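The authors deposited 1 table of UMI counts per Ensembl gene, not normalized, made from CEL-Seq2 reads with UMIs of 6 bases. Such UMIs have 4096 sequences, so that high counts can be compressed. The highest member count was 3429, of Ccnd2 in a CLiP library. Per the submitters' processing notes bcl2fastq 2.20, Bowtie2 2.3.1, HTSeq 0.6.0 and GRCm38 were used. Whether counting used strand is not given in the sources used here, so reads of Ccnd1, Ccnd2, Ccnd3, Cdkn1a and Cdkn1c cannot be told from those of genes that overlap them on the other strand (LTO1, Gm43126 and 9330179D12Rik, Bysl, AC167363.2 and Gm44732). Symbols and coordinates are from GENCODE M21, which matched 45143 of 46078 identifiers.

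Counts were fitted with edgeR 4.0.16 in R 4.3.3 (TMM, filterByExpr with a minimum count of 10 and a minimum total of 15, quasi-likelihood F-test, Benjamini-Hochberg), after the test and the FDR of 0.1 in the study's methods; its log2 fold threshold of 2 was an alternative. FH and the 6 time points shared 1 fit, the 4 organoid groups another, and other comparisons used only their own groups. SEs follow from the F statistic, and 95% intervals are unadjusted. The code was tested on simulated data. Members were named in every group. Of the lists, up to 2 passing genes per direction were named by smallest p. The members and lists were chosen with earlier results of these data known. Pairs of replicates within groups differed by more than counting noise (54 pairs, chi-square per degree of freedom 5.62 to 68), so no library was counted as a copy.

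Pairing was checked as the correlation of deviations from group means. Aggregates and dediHeps of the same culture name deviated together (3 pairs, 0.189 to 0.36) and were taken as paired in an alternative fit. The main tests, also those of the lists, used no block. Same-named dediHep-SOs and dediHeps did not (-0.511 to 0.047). Alternatives were RLE normalization, DESeq2 1.42.0, no low-count filter, all 49 libraries in 1 fit, the fold threshold, UMI collision correction, a replicate block and leaving out each library. Intervals and floors cover counting error only. A gene of the likeness ranking is not reported here.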

Additional observations from a re-analysis of the deposited data

Results flagged for a closer look

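Of 19 sets of levels in groups of 4 or 5 libraries that were examined for a library far from the others, 2 stood out, and chance alone flags about 5% of such groups. Cdkn1b was 114.78 CPM in the fourth dediHep library, against 186 to 204 CPM in the other 4. Cdkn2a was 35.583 CPM in the first dediHep library, against 0 to 6.27 CPM in the other 4.

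The budding-minus-spherical change differed between dediHep-derived and intestinal organoids for 2 members by a test of the difference itself. For Cdkn1c the difference was 1.915 on the log2 scale (adjusted p = 0.0371, edgeR). For Cdkn2b it was -9.011 (adjusted p = 0.0636), a fitted value that is no bound because the dediHep-BOs had 0 counts, and which rested on the third dediHep-SO library (-0.742 without it).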

How the results depend on the processing

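No call of a member reversed its direction in the alternatives run. Under RLE normalization and under the UMI collision correction, each of the 17 counts of members stayed within 1.5 times its value, and the median over all genes shifted by at most 0.0426 between TMM and RLE. The collision correction nevertheless added Ccnd2 in 2 comparisons. It was then lower in dediHep-SOs than in FIPC-SOs (-0.59, adjusted p = 0.0878, edgeR). Its budding-minus-spherical change then differed between origins (0.90, adjusted p = 0.0825, edgeR). Requiring a log2 fold change over 2 left 1 member at 3 h, 3 at 1 day, 2 at 2 days, 0 in dediHep-SOs against dediHeps, 1 in dediHep-SOs against FIPC-SOs, 1 in dediHep-BOs against dediHep-SOs, 0 in ISC-BOs against FIPC-SOs and 1 in the difference between the origins' budding-minus-spherical changes. A single fit of all 49 libraries gave 6 members in aggregates against dediHeps, 5 in aggregates against FH, 2 in dediHep-SOs against dediHeps, 1 in that difference between origins and 2 in CLiPs. DESeq2 gave 1 for CLiPs and 2 for verteporfin. With no low-count filter there were 2 in dediHep-SOs against dediHeps and 2 for verteporfin.

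With a replicate block by culture name, 0 members passed in dediHep-SOs against dediHeps, and 4 in aggregates against dediHeps, where Cdkn2b was added. Elsewhere the replicate numbers of the sample titles did not pair the samples (correlations of -0.597 to 0.638 in the time course and -0.465 to 0.543 in organoids), or gave only 2 pairs, as for verteporfin (0.445). The library names of the time course end in other numbers, which at 3 h differ from those of the other times in 2 of 3 libraries. Pairs by these numbers correlated at -0.597 to 0.638 too, and a replicate block by them, chosen after seeing the data, gave 1 member at 3 h, where Ccnd2 (adjusted p = 0.228) and Mdm2 (0.104) no longer passed. A block by number gave 3 members for verteporfin: Ccnd1 (adjusted p = 0.0847, edgeR), Ccnd2 (0.000564) and Cdkn2b (0.000211). In dediHep-BOs against dediHep-SOs such a block gave 7, without Cdkn1a.

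Leaving out 1 library in turn gave 1 to 5 members at 3 h, 2 to 5 in aggregates against FH, 1 to 2 in dediHep-SOs against dediHeps, 0 to 2 in dediHep-BOs against ISC-BOs, 5 to 8 in dediHep-BOs against dediHep-SOs, 1 to 3 in the difference between origins, 0 to 1 in CLiPs and 0 to 2 for verteporfin. The cause of these changes was not tested. Cdkn1c and Cdkn2a had few counts in many groups. Without the filter or in the single fit Cdkn1c passed as lower than FH at 1 and 2 days (-3.41 and -3.50 without the filter).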

Other observations

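In the dediHep libraries the levels of the INK4 genes and of Cdx2 were uneven. The first dediHep library held 35.6 CPM of Cdkn2a, 150.0 CPM of Cdkn2b and 2.19 CPM of Cdx2, whereas the third held 0, 1.85 and 122 CPM of the same genes. In dediHep libraries 2, 4 and 5 Cdx2 was 70.7, 33.0 and 9.16 CPM, beside 102, 6.11 and 32.8 CPM of Cdkn2b. No relation was tested over these 5 libraries.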
